A study of Mus musculus with 34 samples.

Results

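Pparg, Cidec, G0s2, Pck1 and Cd36 are 5 genes through which adipocytes take up, store and release fat, and they were followed here over 34 arrays of mouse epididymal fat RNA. They are 5 of the 18617 genes with a symbol on the arrays, and each is read by 1 of the 25344 probes, as the platform annotation maps them. The genes were chosen by their log ratios over all pairings of these same arrays, so their values are given as a description and carry no test. Cidec and Pck1 were on the same side of 0 on all 16 arrays that set a high fat diet group over a normal diet group, Pparg on 15 of them, Cd36 on 14 and G0s2 on 10. Cd36 varied most, with values from -3.27 to 2.95 over the arrays.

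Each array held the RNA of 1 diet group labelled with Cy3 and that of another labelled with Cy5, and every pairing was repeated with the dyes exchanged. STD mice ate a normal diet, and HF0 were the offspring of STD given a high fat diet. HF1 came from HF0, HF3 from HF2 and HF4 from HF3, all on the high fat diet; the HF2 generation was not analysed here. HF1-REV, HF3-REV and HF4-REV had the same parental groups as HF1, HF3 and HF4 but ate the normal diet, so their ancestors had eaten high fat food while those of STD, as far as the labels say, had not. All RNA came from the epididymal fat, a visceral pad of male mice that lies along the epididymis. In experiment 1, 12 arrays of Trizol RNA covered every pairing of STD, HF0, HF3 and HF4. In experiment 2 there were 22 arrays of RNA extracted with Qiagen reagents, with every pairing of HF0, HF1, HF3 and HF4, HF0 over STD on 4 arrays, and each reversal group with its namesake on 2. The labels give neither strain, age and number of animals nor whether the arrays of a group share an extract, so the spread between arrays may be technical only.

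All values are deposited log ratios taken as log2, read as Cy5 over Cy3 and with their sign set so that the group named first is the numerator. No source used here says which dye the authors divided by the other, and every sign below turns if it was Cy3 by Cy5. A negative value thus means less RNA in the group named first under this reading and more under the other, while the relative directions of genes and pairings hold under both. Because the base of the log is not stated either, no value was converted to a fold.

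Pparg encodes the nuclear receptor that, paired with a retinoid X receptor, switches on the storage program of fat cells. Cd36 brings fatty acids across the plasma membrane, Pck1 makes the glycerol backbone onto which they are esterified, Cidec fuses small lipid droplets into large ones, and G0s2 restrains Pnpla2, the lipase that starts the release of stored fat. Cidec, G0s2, Pck1 and Cd36 are all known targets of Pparg in adipocytes. In bulk tissue, fewer adipocytes and less RNA per adipocyte cannot be told apart.

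The experiments differed in how well their pairings added up. In a set of all pairings of 4 groups, each direct ratio can be set beside the same ratio taken through the other groups. Over all 22879 features (genes, and probes without a single symbol) the correlation of the direct with the indirect ratio was 0.61 to 0.86 over the 6 pairings of experiment 2, but -0.13 to 0.70 over the 6 of experiment 1; the direct and the indirect ratios come from the same hybridised groups, and features are not independent replicates. The gap between direct and indirect value, as a root mean square over the 6 pairings, was 2.35 for Cd36, 1.46 for Pparg, 1.14 for Cidec, 1.12 for Pck1 and 0.75 for G0s2 in experiment 1, against a median of 0.28 over all features. In experiment 2 it was 0.10 for Cd36, 0.48 for Pparg, 0.33 for Cidec, 0.03 for Pck1 and 0.24 for G0s2, against a median of 0.24, so Cd36 and Pck1 added up closely there while Pparg and Cidec did so less well than the median feature. Pparg in HF4 over HF3 of experiment 2 was 0.16 direct and -0.65 through the other groups. Cd36 in HF4 over HF0 shows the size of the gap, with 1.43 direct and -2.45 through the other groups in experiment 1, where HF4 over STD read -1.91 directly and 1.91 as the sum of HF4 over HF0 and HF0 over STD. Male germ cell markers, a list of 22 measured genes, did not add up either: their median in experiment 1 was 3.40 in HF3 over HF0, but -0.02 in HF3 over STD and 0.01 in HF0 over STD. The libraries are therefore called by their labels only, the array values of each experiment are given separately, and the cause of the disagreement was not tested.

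**Figure D1:**
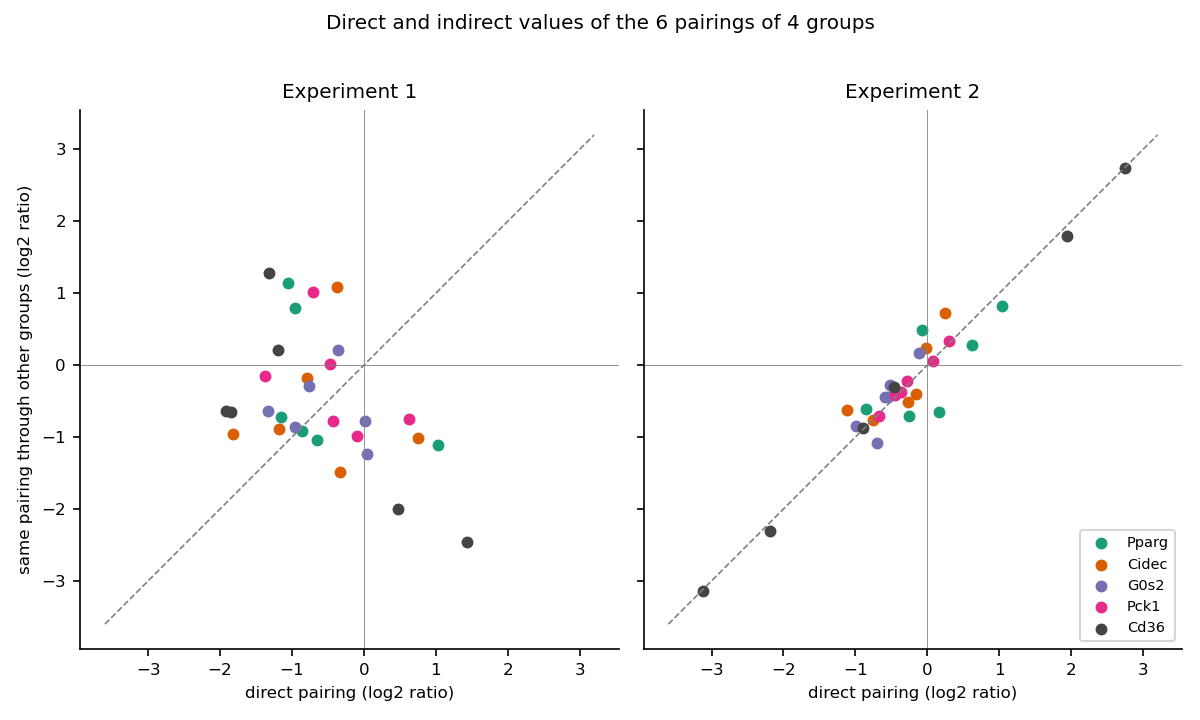
Direct log2 ratio of each pairing (horizontal axis) against the same ratio taken through the other groups (vertical axis) for the 5 genes, with experiment 1 on the left and experiment 2 on the right; the dashed line marks equal values. In experiment 2 the points of Cd36 lie close to the line, from -3.11 to 2.75 on the direct axis, and 4 of the 30 points of the 5 genes, those of Pparg in HF4 over HF0 and HF4 over HF3, Cidec in HF4 over HF3 and G0s2 in HF1 over HF0, have values of opposite sign. In experiment 1 that holds for 15 of 30.

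Pparg lies on chromosome 6 (chr6:115360879-115490404, GRCm38.p6). It was on the negative side on 15 of the 16 arrays that compared diets, with a median log2 ratio of -0.67. In HF0 over STD the 2 arrays of experiment 1 read -0.77 and -0.54, and the 4 of experiment 2 read -0.47, 0.65, -0.56 and -0.75. The array at 0.65 was the only positive value, and the arrays of its date averaged 0.04 while those of the other date averaged -0.61. HF3 over STD read -1.18 and -1.13 and HF4 over STD -0.78 and -0.95, all in experiment 1. These 4 direct values lay under the 6 of HF0 over STD, though only just for HF4. Taken through HF0 in experiment 1, HF3 over STD was -1.62 but HF4 over STD 0.37. Through HF0 in experiment 2 they were 0.34 and -0.36, so this order did not hold. Against the reversal groups, the values were -0.10 and -0.96 for HF1, -0.59 and -0.53 for HF3, and -0.53 and -1.18 for HF4. All 6 of these arrays were negative, the HF3 arrays were close together, and the HF1 and HF4 arrays overlapped each other.

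Between the generations on high fat diet, Pparg did not hold its order in the 2 experiments. In experiment 1, HF3 over HF0 read -0.66 and -1.27, HF4 over HF0 read 1.00 and 1.05, and HF4 over HF3 read -1.02 and -1.08. These 3 pairings contradict each other, since HF4 stood on the negative side of HF3, HF3 on the negative side of HF0, and HF4 on the positive side of HF0. In experiment 2 the same pairings averaged 0.63 ± 0.99 (SD, n = 2 arrays), -0.07 ± 0.86 and 0.16 ± 0.45, each with arrays on both sides of 0. HF1 over HF0 was positive on both arrays, at 0.42 and 1.66, and HF4 over HF1 negative on both, at -1.13 and -0.56. Pparg had the second largest typical dye term of the 5 genes, a median of 0.31 over its pairings against 0.19 for all features. The dye term is the part of a swap that does not turn with the labels. Within a single pairing of 2 arrays it is fixed by the gap between them and cannot be told apart from scatter. Over the pairings it mostly kept its sign. For Pparg it was negative in all but HF4 over HF3 (0.32) and HF4 over HF4-REV (0.33) of experiment 2. For Cd36 it was positive in every pairing, and for Pck1 in all but HF4 over HF3 of experiment 1 (-0.22). That of G0s2 was positive throughout experiment 1 and negative throughout experiment 2.

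Cidec, which encodes the droplet protein CIDEC, lies on the same chromosome (chr6:113424634-113435760). It was negative on all 16 diet arrays, with a median of -1.23, the largest in size among the 5 genes. HF0 over STD read -0.29 and -0.37 in experiment 1 and -1.98, -2.25, -1.09 and -1.37 in experiment 2, so the experiments did not overlap. The mean of the 4 was -1.67 ± 0.54 (SD), and it was nearly the same on the 2 dates, at -1.68 and -1.67. HF3 over STD read -1.72 and -1.92, and HF4 over STD read -1.53 and -0.84. Each reversal pairing was negative on both arrays: -1.51 and -0.71 for HF1, -1.02 and -0.62 for HF3, and -1.61 and -1.05 for HF4. All pairings of high fat with normal diet thus lay on the negative side without reaching 0.

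Among the high fat generations of experiment 2, the pairing means of Cidec lay from -0.27 to 0.24, except in HF3 and HF4 over HF1. HF1 over HF0 read 0.18 and 0.30, HF3 over HF0 read 0.04 and -0.57, HF4 over HF0 read -0.68 and 0.37, and HF4 over HF3 read 0.04 and -0.08. HF1 was set apart from HF3 and HF4: HF3 over HF1 read -0.45 and -1.78, and HF4 over HF1 read -0.28 and -1.22. In experiment 1, HF3 over HF0 read -1.01 and -0.57, HF4 over HF3 -0.35 and -0.41, and HF4 over HF0 0.90 and 0.59, which again cannot be put into 1 order.

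Pck1, the cytosolic enzyme that supplies glycerol phosphate from non-sugar precursors in fat, lies on chromosome 2 (chr2:173153073-173159274). It was negative on all 16 diet arrays with a median of -1.01. HF0 over STD read -0.05 and -0.16 in experiment 1, close to 0, and -1.56, -1.56, -0.65 and -0.90 in experiment 2, with no overlap between the experiments. HF3 over STD read -1.33 and -1.43, and HF4 over STD read -0.67 and -0.19. The reversal pairings read -1.57 and -0.72 for HF1, -0.17 and -1.52 for HF3, and -1.12 and -1.54 for HF4. The HF3 swap was the widest of Pck1, with an SD of 0.95 between its 2 arrays.

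Between generations in experiment 2, Pck1 had arrays on both sides of 0 in HF1 over HF0 (0.65 and -0.05), HF3 over HF0 (0.68 and -0.52) and HF3 over HF1 (0.21 and -0.78). HF4 was on the negative side of each other high fat generation on both arrays, at -0.69 and -0.04 over HF0, -0.18 and -1.17 over HF1, and -0.06 and -0.84 over HF3. In experiment 1, HF4 over HF0 was instead positive on both arrays, at 0.67 and 0.57.

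The 250 bases before the starts of Pck1 and Cidec, whose group values were alike, and of Cd36, whose group values were not, are shown because Pparg itself is among the 5 genes (RefSeq, GRCm38.p6, 5′ to 3′ on the strand of the gene). Pck1 is read from chr2:173152823-173153072 on the plus strand, Cidec from chr6:113435761-113436010 on the minus strand for the more upstream of its listed starts, and Cd36 from chr5:17835897-17836146 on the minus strand. The Cd36 start, the only one listed, lies inside the gene span of chr5:17781690-17888959 and not at its 5′ end. Capitals mark TTACGTCA, a cAMP response element, in Pck1, and TGACCT, the reverse complement of the PPAR and RXR motif AGGTCA, in Cd36; Cidec holds none of the motifs searched.
Pck1: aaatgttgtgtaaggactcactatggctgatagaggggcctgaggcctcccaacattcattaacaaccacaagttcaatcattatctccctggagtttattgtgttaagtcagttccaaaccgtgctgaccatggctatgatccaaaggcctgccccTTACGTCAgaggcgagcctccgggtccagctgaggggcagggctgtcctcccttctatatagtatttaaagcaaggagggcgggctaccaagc
Cidec: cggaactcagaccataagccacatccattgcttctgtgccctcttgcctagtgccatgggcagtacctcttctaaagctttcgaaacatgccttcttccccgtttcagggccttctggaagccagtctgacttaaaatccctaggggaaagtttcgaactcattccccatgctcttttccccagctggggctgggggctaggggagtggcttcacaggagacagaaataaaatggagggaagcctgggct
Cd36: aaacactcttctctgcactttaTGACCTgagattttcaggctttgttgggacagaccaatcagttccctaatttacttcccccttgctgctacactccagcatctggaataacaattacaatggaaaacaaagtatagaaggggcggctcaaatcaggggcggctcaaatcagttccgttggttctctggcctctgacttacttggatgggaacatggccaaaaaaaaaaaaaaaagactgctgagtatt
In this window and on both strands, AGGTCA was found in 14.0% of 32851 listed promoters and in 3 of the 8 promoters of the 5 genes, those of Cd36 and of 2 Pparg starts. Its direct repeat with 1 base between, AGGTCANAGGTCA, was in 0.0335% of all promoters and in none of the 8. The C/EBP core TTGCGCAA (0.164% of promoters) and the E-box CACGTG (6.02%) were in none of the 8, and TATAAA (12.4%) was in 1. TTACGTCA, searched after the values were seen, was in 0.447% of promoters and, of the 8, in that of Pck1, 93 to 86 bases before the start. These matches describe letters and not binding.

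G0s2, the inhibitor of the lipase Pnpla2, is a short gene on chromosome 1 (chr1:193272160-193273188). It was negative on 10 of the 16 diet arrays, with a median of -0.30. HF0 over STD lay on both sides of 0 in both experiments, with 0.22 and -0.20 in the former and 0.10, 0.32, -0.25 and -0.35 in the latter. HF3 over STD read -0.70 and -1.21 and HF4 over STD -1.55 and -1.12. The direct values of the later generations of experiment 1 thus lay below all 6 of HF0. Taken through HF0 in experiment 1, HF3 over STD was -0.76 but HF4 over STD 0.05. In experiment 2, HF1 over HF1-REV read 0.19 and 0.02, HF3 over HF3-REV -0.58 and 0.29, and HF4 over HF4-REV -1.99 and -0.47. The HF4 arrays lay further apart than those of any other swap of the 5 genes, with a mean of -1.23 ± 1.07 (SD, n = 2 arrays). This SD also holds the dye term, which was negative in every G0s2 pairing of experiment 2. With 2 arrays dye and scatter cannot be separated, so how well the mean is fixed cannot be read from it.

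In experiment 2, HF4 was also on the negative side of the other high fat generations for G0s2, while HF4 over HF0 of experiment 1 had arrays on both sides of 0. HF4 over HF0 read -0.50 and -0.91 in experiment 2 and 0.25 and -0.18 in experiment 1. HF4 over HF1 read -1.29 and -0.69, and HF4 over HF3 read -1.04 and -0.01 in experiment 2 and -0.68 and -0.04 in experiment 1. HF3 was negative too, at -0.99 and -0.10 over HF0 and -0.61 and -0.57 over HF1 in experiment 2, and at -0.99 and -0.55 over HF0 in experiment 1.

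Cd36, the fatty acid translocase, which endothelial cells and macrophages also carry, lies on chromosome 5 (chr5:17781690-17888959). It was negative on 14 of the 16 diet arrays, with a median of -0.93. HF0 over STD was on opposite sides in the experiments, with 0.65 and 0.30 in experiment 1 but -0.93, -0.93, -0.25 and -0.58 in experiment 2. HF3 over STD read -1.61 and -2.10, and HF4 over STD read -2.33 and -1.50. Against the reversal groups, HF1 read -0.96 and -0.25 and HF3 read -0.12 and -0.57, whereas HF4 read -2.83 and -3.27, outside the range of all 14 other diet arrays. Endothelial markers, 13 genes, had a median of 0.49 in HF0 over STD of experiment 1 and -1.03 in that of experiment 2, and of -0.45 in HF4 over HF4-REV. Macrophage markers, 18 genes, stood at -0.11, 1.08 and -0.74 in the same pairings, and the part of either cell type in the Cd36 values was not tested.

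In experiment 2 the high fat generations were at separate levels of Cd36. HF1 over HF0 read 2.95 and 2.54 and HF3 over HF0 read 2.25 and 1.62, all far on the positive side. HF4 over HF1 read -3.01 and -3.22 and HF4 over HF3 read -1.75 and -2.62, while HF4 over HF0 read -0.83 and -0.09. HF0 and HF4 thus stood low together, and HF1 and HF3 high, with HF3 over HF1 at -0.66 and -1.13. The direct and indirect values of this pattern were close, for example 2.75 and 2.74 in HF1 over HF0. Experiment 1, which had no HF1, gave another picture: HF3 over HF0 read -1.36 and -1.03, HF4 over HF0 read 1.63 and 1.24, and HF4 over HF3 read -1.50 and -1.15. Of the pairings that both experiments held for Cd36, HF4 over HF3 alone kept its side in the direct ratios. Taken through the other groups in experiment 1, HF4 over HF3 was positive instead, and the other shared pairings lay on the side of experiment 2.

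**Figure D2:**
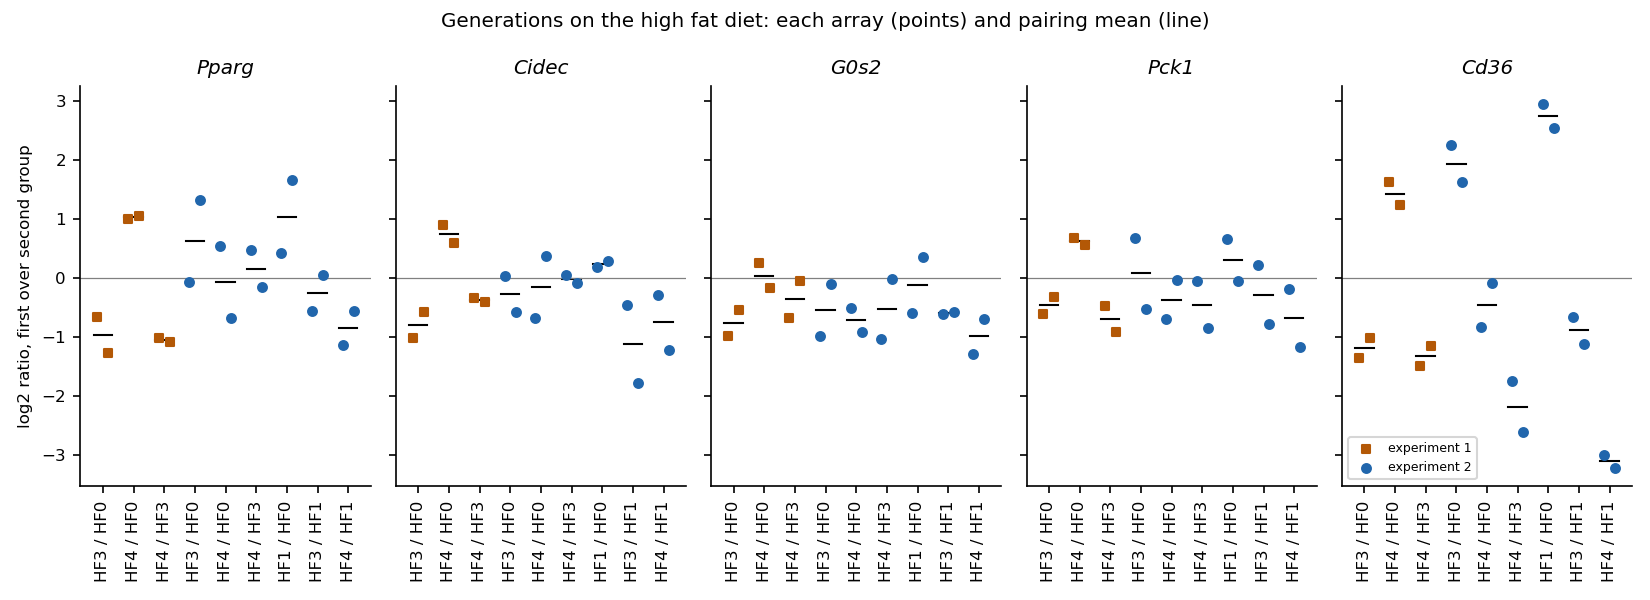
Log2 ratios of the 5 genes on each array (points; squares for experiment 1, circles for experiment 2) that compared high fat diet generations, with the mean of each pairing as a line; the horizontal axis names the first over the second group. Cd36 in experiment 2 spans from -3.22 in HF4 over HF1 to 2.95 in HF1 over HF0, and HF4 over HF0 differs in sign between the experiments for Cd36 and Pck1 on all 4 arrays.

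Side by side, the diet arrays split the 5 genes by how regular they were. Of the 22879 features, 26 (0.114%) were negative on all 16 arrays and 4 (0.0175%) were positive on all 16; Cidec and Pck1 are among the 26, and since these arrays were used to choose them, nothing is read from that. Within experiment 2 alone, Cidec, Pck1 and Cd36 were negative on 10 of 10 arrays, Pparg on 9 and G0s2 on 5. Within experiment 1, Cidec, Pck1 and Pparg were negative on 6 of 6, G0s2 on 5 and Cd36 on 4. The medians were -1.18 and -1.23 for Cidec in experiments 1 and 2, -0.43 and -1.32 for Pck1, -0.86 and -0.54 for Pparg, -0.91 and -0.12 for G0s2, and -1.55 and -0.75 for Cd36. The mature adipocyte markers, 14 genes of which 9 also stand in the pathway lists, had a median below 0 on 16 of 16 arrays, from -1.13 to -0.11, and 13 of the 14 had a median below 0. The endothelial markers were below 0 on 14 arrays and all 13 had a median below 0, while 5 of 18 macrophage markers did. The epididymis list, 17 genes, had medians of -1.86 and -4.47 in HF0 over STD of experiments 1 and 2. Its median was -0.02 in HF3 over STD and -0.23 in HF4 over STD. Against the reversal groups it was positive, at 1.07 for HF1, 0.40 for HF3 and 0.59 for HF4. Its median was thus below 0 on only 9 of the 16 arrays. Log ratios hold no levels, so whether a marker is near 0 in the tissue cannot be read, and the part of these cell types in the 5 genes was not tested.

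**Figure D3:**
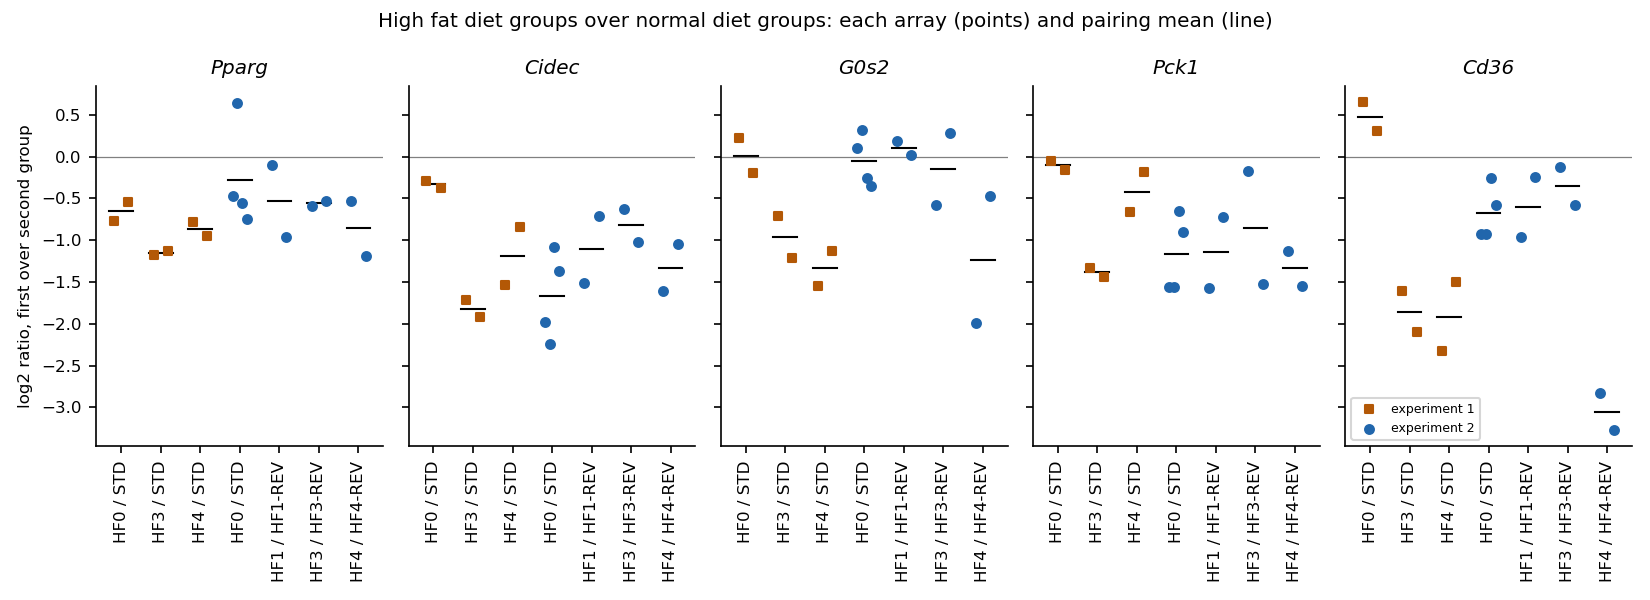
Log2 ratios of the 5 genes on the 16 arrays (points; squares for experiment 1, circles for experiment 2) that set a high fat diet group over a normal diet group, with the mean of each pairing as a line. All 16 points of Cidec and of Pck1 lie below 0, the single positive point of Pparg is at 0.65, and the HF4 over HF4-REV points of Cd36 lie at -2.83 and -3.27.

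The 8 groups of experiment 2, whose pairings added up better, were put in order for each gene by least squares, relative to HF0; for Pparg and Cidec the order is less firm, as their larger gaps show. As a description and not a test, the gap between neighbours was set beside the median SD of a pairing's arrays for that gene. That spread may be technical only. In a dye swap it also holds the dye term, which averaging the swap takes out. The SD is thus not the error of the group values. For Cd36 (median SD 0.33) the order ran HF1-REV at 3.35, HF1 at 2.74, HF4-REV at 2.67, HF3-REV at 2.21, HF3 at 1.86, STD at 0.67, HF0 at 0 and HF4 at -0.38, and each gap but that of HF1 and HF4-REV was wider than that SD. STD thus lay under all 3 reversal groups and under HF1 and HF3. For Cidec (median SD 0.48) STD and HF1-REV led at 1.67 and 1.59, HF4-REV followed at 1.05 with a wider gap than the SD on both sides, and HF1, HF3-REV, HF0, HF4 and HF3 lay from 0.48 to -0.39 with gaps within the SD. For Pck1 (median SD 0.58) the 4 normal diet groups, from 1.47 in HF1-REV to 0.92 in HF3-REV, stood above the 4 high fat groups, from 0.32 in HF1 to -0.37 in HF4, and the gap of 0.60 between these sets was the only one above the SD, by a small margin. For Pparg (0.53) and G0s2 (0.52) no gap exceeded the SD: Pparg ran from 1.46 in HF1-REV to 0 in HF0, with STD sixth at 0.28, and G0s2 from 0.33 in HF4-REV to -0.90 in HF4. STD is tied to the rest only through the 4 arrays of HF0 over STD, and each reversal group only through its namesake.

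**Figure D4:**
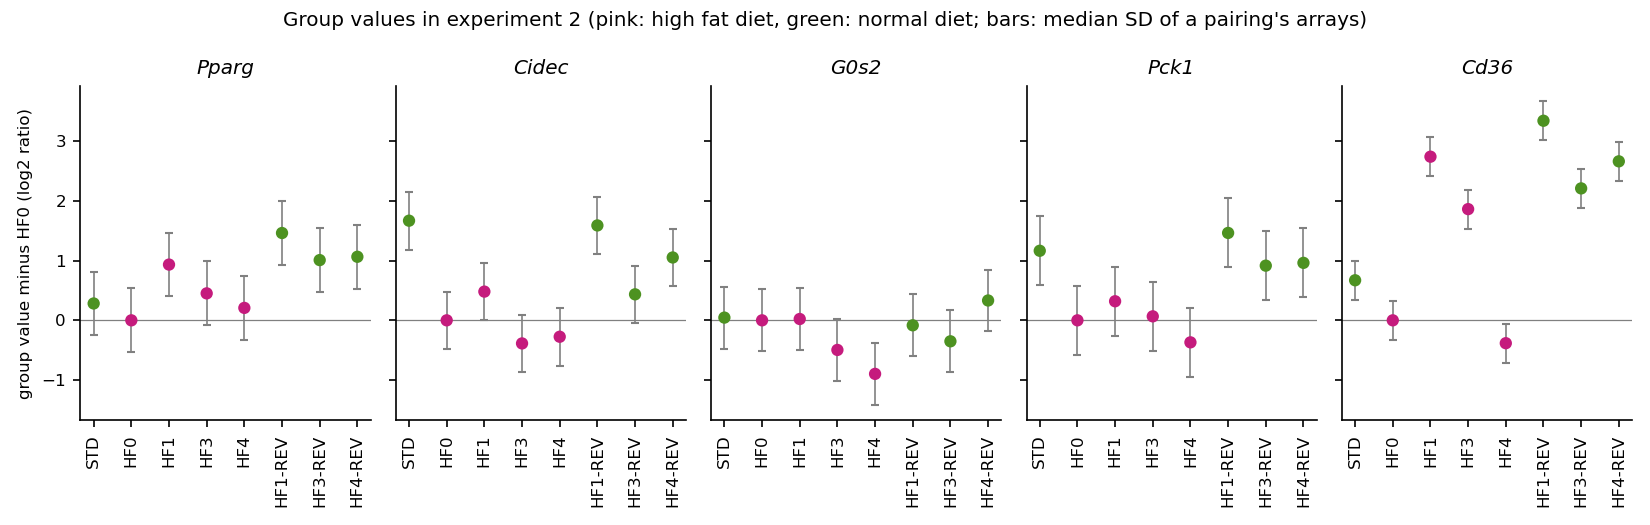
Least squares group values of experiment 2 minus HF0 (log2 ratio) for the 5 genes. Pink points are high fat diet groups and green points normal diet groups. Bars give the median SD of the arrays of a pairing for that gene, dye term included, and are not errors of the group values. Pck1 has its 4 green points above its 4 pink points, while Cd36 has HF1 at 2.74 and HF3 at 1.86 among the normal diet groups.

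When both experiments entered 1 fit (limma, on 12 group values with the experiment as a block), the differences of the 5 genes were as follows, with standard errors and no test. HF0 against STD gave -1.29 ± 0.23 for Cidec, -0.85 ± 0.22 for Pck1, -0.72 ± 0.59 for Cd36, -0.57 ± 0.25 for Pparg and -0.21 ± 0.14 for G0s2. HF4 against STD gave -1.49 ± 0.23 for Cidec, -1.07 ± 0.22 for Pck1, -1.16 ± 0.59 for Cd36, -0.48 ± 0.25 for Pparg and -0.97 ± 0.14 for G0s2. The order of Cidec over Pparg was thus kept in both, whereas G0s2 was small in HF0 and large in HF4. HF4 against HF4-REV gave -2.81 ± 0.75 for Cd36, -1.17 ± 0.29 for Cidec, -1.16 ± 0.18 for G0s2, -1.10 ± 0.28 for Pck1 and -0.95 ± 0.32 for Pparg. HF1 and the reversal groups have 1 group value each, so their own spread enters no standard error or test of the fit. The standard error of G0s2 thus leaves out the SD of 1.07 between the HF4 over HF4-REV arrays. The differences from the fit average experiments whose pairings added up unequally well. With experiment 2 alone Pparg in HF3 against STD was 0.17 instead of -0.38, and with experiment 1 alone Cd36 in HF3 against HF0 was -0.49 instead of 0.69.

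The genes with the most similar group values differed from member to member. Likeness was the root mean square difference over the 12 group values, ranked over 18616 genes; it uses the same values by which the 5 genes were chosen and is a description. The gene nearest to Cidec was Pck1, at 0.28, followed by Kif26a and by Orm1, an acute phase protein, both at 0.31; seen from Pck1, Cidec came 16th, after Snrk (0.22), Scarf1 and Kank3 (both 0.25) among others. The genes nearest to Pparg were Pnpla2, the lipase that G0s2 inhibits, at 0.17, Srebf1, a regulator of lipid synthesis, at 0.18, and Gnai2, an inhibitory G protein subunit, at 0.18. G0s2 was nearest to Htr4 (0.17), Dpm3 (0.19) and Scamp5 (0.19), on group values of its own that were small, 0.40 as a root mean square. Cd36, at 1.42 by that measure, was nearest to Ly6e (0.47), Bst2 (0.48) and Acbd5 (0.49). Bst2, an antiviral membrane protein induced by interferon, read 1.88 in HF1 over HF0, 1.24 in HF3 over HF0, -2.19 in HF4 over HF1 and -2.03 in HF4 over HF4-REV of experiment 2 as pairing means. Acbd5, a peroxisomal acyl-CoA binding protein, read 2.28, 1.98, -2.06 and -1.89 in the same pairings, but 0.25 in HF0 over STD where Cd36 read -0.67.

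The rest of the storage pathway was described with 7 overlapping lists that hold 128 measured genes beside the 5. On the 16 diet arrays, 82 of the 128 had a median below 0, and the median of their medians was -0.07, against 0.01 for all features. Of the 128, 4 were negative on all 16 arrays and 0 were positive on all 16, against 0.114% and 0.0175% of all features. The lists were chosen with earlier results of these data known, so nothing is read from that. The 4, named after their values were seen, are Adipoq, which encodes the hormone adiponectin (median -1.07), Pcx, pyruvate carboxylase, which feeds Pck1 (-0.95), Lipe, hormone-sensitive lipase (-0.70), and Ldhb, a lactate dehydrogenase subunit (-0.31). Known adipose targets of Pparg had 21 of 23 medians below 0 with a median of -0.31, and genes of glyceroneogenesis and glycerol supply 12 of 16 with a median of -0.26. Lipolysis genes had 18 of 23 below 0 (median -0.10), lipid droplet proteins 16 of 26 (-0.05), adipocyte transcription regulators 15 of 26 (-0.07), fatty acid uptake and activation 13 of 21 (-0.03), and triglyceride synthesis 10 of 18 (-0.04). The exceptions among the Pparg targets include Hilpda, another inhibitor of Pnpla2, which was positive on 13 of 16 arrays with a median of 1.09. Hilpda and G0s2, which act on the same lipase, thus had medians on different sides of 0.

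**Figure D5:**
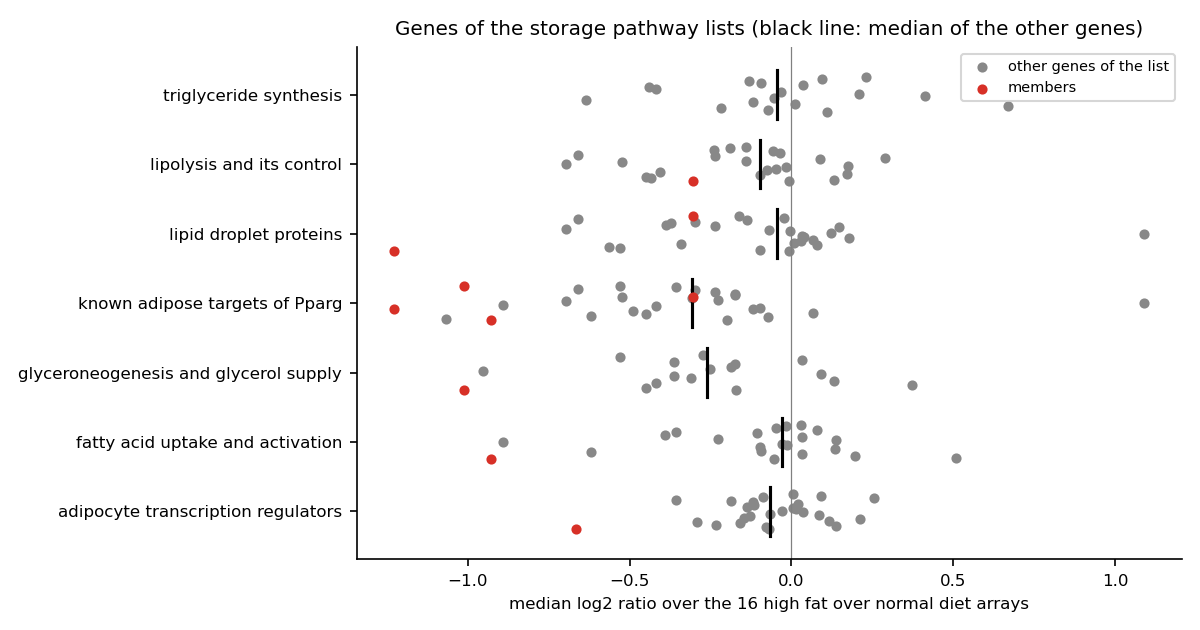
Median log2 ratio over the 16 high fat over normal diet arrays for each gene of the 7 pathway lists (grey points) and for the 5 genes within the lists that hold them (red points), with the median of the other genes as a black line. Cidec at -1.23 is the leftmost point of the lists that hold it, and Hilpda at 1.09 the rightmost.

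Tested gene by gene in the fit, few of the 128 genes passed an adjusted p of 0.05 (limma, Benjamini-Hochberg over 22879 features). In HF0 against STD, HF3 against STD, HF1 against HF0, HF3 against HF0, HF3 against HF1, HF4 against HF3 and HF1 against HF1-REV, 0 of 22879 features passed (0%). HF4 against STD called 0.437% of all features and HF3 against HF3-REV 0.0874%, and 0 of the 128 in either. With so low a share over all features, 0 of the 128 does not set the pathway apart. Over these 9 comparisons, 3 to 34 of the 128 had an unadjusted p under 0.05, and limma with a robust prior called 0 of the 128 as well. In HF0 against STD, Adipoq (-1.24 ± 0.26, SE), Dgat2, which makes triglyceride (-1.02 ± 0.24), Gpd1, which makes glycerol phosphate (-1.33 ± 0.40), and Pcx (-1.17 ± 0.18) were among the pathway genes with the largest differences, and none passed, with adjusted p values of 0.629 to 0.674 from limma.

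The calls within the pathway all involved HF4, as did all calls over all features but those of HF3 against HF3-REV. The share of the 128 called was below that of all features in HF4 against HF0 and in HF4 against HF4-REV. It was above that share in HF4 against HF1. HF4 against HF0, where 4.21% of all features were called, had 5 of the 128 on the positive side and 0 on the negative: Gpd2, mitochondrial glycerol phosphate dehydrogenase (2.36 ± 0.33, limma adjusted p = 0.0166), Acsl6, an acyl-CoA synthetase (2.21 ± 0.22, adjusted p = 0.00887), Gpat2, a glycerol phosphate acyltransferase (1.65), Klf5, a factor of adipocyte differentiation (1.00), and Tle3, a partner of Pparg (0.82). HF4 against HF1, with 2.81% called, had Gpd2 (2.55), Acsl6 (2.49), Gpat2 (1.94) and Klf5 (1.27) on the positive side and Aqp7, the glycerol channel of adipocytes, on the negative (-1.26 ± 0.21, limma adjusted p = 0.0415). HF4 against HF4-REV, with 11.2% called, had 8 positive and 3 negative. Beside Acsl6, Gpat2, Gpd2, Klf5 and Tle3, the positive ones were Hilpda (1.52), Fabp3, a fatty acid binding protein (1.05), and Slc27a3, of the fatty acid transporter family (0.67). The negative ones were Gpihbp1, which anchors lipoprotein lipase in capillaries (-1.85 ± 0.34, limma adjusted p = 0.0274), Plin3, a droplet coat protein (-1.43), and Agpat3, an acyltransferase (-0.78). By list, adipocyte regulators had 2 of 26, uptake 1 of 21, triglyceride synthesis 1 of 18 and glyceroneogenesis 1 of 16 positive in HF4 against HF0, and droplet proteins, lipolysis and Pparg targets had 0. The male germ cell markers had medians of 2.68 and 3.80 in HF4 over HF0 of experiments 1 and 2. They stood at 3.52 in HF4 over HF1 and 3.45 in HF4 over HF4-REV, with all 22 positive in each. HF3 shared this, with 3.40 and 2.73 over HF0 of experiments 1 and 2, 2.34 over HF1 and 2.30 over HF3-REV. All 22 were positive there too. In these HF3 comparisons 0 of the 128 were called. Over all features the share called was 0% in HF3 against HF0 and HF3 against HF1, and 0.0874% in HF3 against HF3-REV. With such shares, 0 of the 128 does not set the pathway apart. In HF3 over STD the median of the germ cell markers was -0.02. Gpd2, Acsl6 and Gpat2 are also known from testis, and the part of such RNA in their values was not tested. With quantile normalization 15 of the 21 calls missed the threshold, among them all 11 in HF4 against HF4-REV. With scale normalization 8 missed it, 7 of them in HF4 against HF4-REV, namely Hilpda, Gpihbp1, Plin3, Agpat3, Slc27a3, Klf5 and Tle3. All 21 differences kept their side of 0 under both.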

How the data were processed

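Epididymal fat RNA of mice was compared on 34 arrays, each with a Cy3 and a Cy5 channel, per the labels. The authors deposited 1 log ratio per probe and array, treated here as log2, because with base 10 the highest value, 7.99, would exceed 4.82, the widest ratio of 16-bit scans; it could also be a natural log. How the background was corrected, and which normalization and filters were applied, is not stated there. The table has no intensities, so the number of arrays limits the precision. Probes were named through the platform annotation (21082 with 1 symbol, 30 with several, 4232 with none), with 20456 matched by gene ID to RefSeq, and probes of 1 gene were averaged.

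Arrays were centred on their median (-0.062 to 0.046 as deposited), swaps averaged, group values taken by least squares within each experiment, and 12 group values fitted with limma 3.58.1 in R 4.3.3 (lmFit, eBayes, blocked by experiment; degrees of freedom 3 residual, 3.16 prior), with Benjamini-Hochberg adjustment over 22879 features. HF1 and the reversal groups have 1 group value each, the others 2. Figures were drawn with matplotlib 3.10.9. The code was tested on simulated data.

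The 5 genes and all lists were chosen with earlier results of these data known. Named were the 5 genes, the 3 nearest to each by group values, pathway genes past the threshold (at most 4 per list and comparison) and up to 3 per list with the largest differences in HF0 against STD, HF4 against STD and HF1 against HF0; others are marked as named after their values were seen. Alternatives covered centring, scaling, probe choice, dye terms, each experiment alone, direct arrays only and each array left out.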

Additional observations from a re-analysis of the deposited data

Results flagged for a closer look

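The direct ratio of the same pairing lay on opposite sides of 0 in the 2 experiments, on every array of each, in 4 cases. For Cd36, HF0 over STD averaged 0.48 in experiment 1 and -0.67 in experiment 2, HF3 over HF0 averaged -1.19 and 1.94, and HF4 over HF0 averaged 1.43 and -0.46. For Pck1, HF4 over HF0 averaged 0.62 and -0.37. In each of the 4 cases, the ratio of experiment 1 taken through the other groups lay on the side of experiment 2. The direct means of experiment 1 thus contradict its own indirect values. A difference between the experiments cannot be told apart here from pairings of experiment 1 that did not add up. These differences were not tested.

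Within experiment 2, G0s2 was positive on both arrays of HF1 over HF1-REV (mean 0.11) and negative on both of HF4 over HF4-REV (mean -1.23). This difference was not tested either. For HF0 over STD in experiment 2, the pairing with 4 arrays, no array stood far enough from the others to be listed for any of the 5 genes.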

How the results depend on the processing

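The pathway calls numbered 21 over the 12 comparisons. They numbered 8 with quantile normalization, 68 without the STD extract of experiment 2, 158 when limma was run over 34 arrays, and 17 to 47 when each array was left out in turn. Leaving out the STD extract means leaving out STD of experiment 2, and the labels do not say whether its arrays share an extract. The run over 34 arrays took the arrays of a swap as independent, without the experiment as a block. Its 158 calls may thus be too many. There were 630 values of the 5 genes under other settings (each array left out aside). Of these, 537 moved by less than the residual SD, and 15 lay on the other side of 0 from the fit. The 537 include settings that left the values as they were, so this count overstates how firm the values are. Those settings were each array as 1 observation, a dye term per date, the widest probe of a gene and only features with a symbol. The residual SD here is that moderated by limma, which also draws on the prior over all features. Of the 15, 4 moved by less than the residual SD and 8 by more from a value within that SD of 0, among them Cd36 in HF3 against STD (-0.03 in the fit, 1.19 in experiment 2 alone). The other 3 turned a value that exceeded the SD: Cidec in HF4 against HF3 to -0.20 with direct arrays only, Cd36 in HF3 against HF0 to -0.49 in experiment 1 alone, and Pparg in HF3 against STD to 0.17 in experiment 2 alone. The median of the 5 genes moved as follows. With direct arrays only it was -0.47 in HF0 against STD (-0.72 in the fit), -1.38 in HF3 against STD (-0.73), 0.30 in HF4 against HF0 (-0.22), -0.45 in HF4 against HF3 (-0.14) and -0.56 in HF3 against HF3-REV (-0.80). With quantile normalization it was -1.01 in HF3 against STD and -1.18 in HF3 against HF3-REV, and with scale normalization -0.91 in HF4 against HF4-REV (-1.16 in the fit). In experiment 1 alone it was -0.49 in HF3 against HF0 (-0.08), and in experiment 2 alone -0.40 in HF4 against HF3 and -0.56 in HF3 against HF3-REV. With each array left out it ran from -0.96 to -0.60 in HF1 against HF1-REV and from -1.45 to -1.09 in HF4 against HF4-REV, and G0s2 in HF3 against HF3-REV ran from -0.67 to 0.20. The cause was not tested. The counts of negative diet arrays were the same without centring and with quantile normalization, alternatives chosen after seeing the data. No paired analysis was possible because the labels give replicates no number that groups share.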
